A study of Glycine max with 24 samples.

Results

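Soybean leaves (Glycine max) of the aphid-susceptible cultivar SD01-76R were compared after 7 days with soybean aphids and after 7 days without them. The 6 arrays used here, 3 infested and 3 uninfested, were chosen by their sample titles from the 24 arrays of a study that also held the resistant cultivar LD05-16060 and a day 1 sampling. Per the labels and the series' design text, the tissue was the third trifoliate leaf of plants at the V3 stage, grown in a chamber at 25 C with 16 h of light. Each infested plant was given 30 aphids, 10 to a leaflet and at least 21 of them adult; a net kept aphids from moving between plants, and the insects were taken off before the leaves were sampled. All groups shared these conditions, and the labels name no number of plants per sample. Replicates are separate samples by their labels. The p-values below rest on the spread among such samples, pooled over all 8 groups of the study, and may cover technical variation alone. The number of arrays limits the precision.

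Soybean aphids feed from the phloem through a thin stylet. Plants meet such feeding with hormone signals: jasmonate and ethylene pathways are known from wounding, salicylate from pathogens and many sap feeders, and abscisic acid from drought, cold and seed maturation. Leaves under such stress also commonly change the transcripts of light capture, cell wall growth and phenylpropanoid metabolism.

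Values are log2 intensities of probe sets, quantile-normalized over all 24 arrays, and a difference is infested minus uninfested with its standard error from limma. That error uses the pooled spread of all 24 arrays (16 residual degrees of freedom), so resistant and day 1 arrays also set it. The 5th and 95th percentiles of all values were 5.28 and 11.16. The deposited values come without a measure of background. A gene whose mean lies below about 6 in one group is therefore not shown to be above background there, and its difference is not an exact size. On the deposited scale the array medians were 7.97, 8.04 and 7.86 in infested leaves, against 7.38, 7.73 and 7.65 in uninfested leaves. Control transcripts give a measure of RNA quality, their 3' signal less their 5' signal, which was 0.939, 1.201 and 1.385 on infested arrays and 0.953, 0.854 and 0.999 on uninfested arrays, and the counts with it as a covariate are given in the closing section. In a principal component analysis of the 6 arrays the first component held 53.2% of the variance, and the infested arrays scored -55.4, -30.5 and -42.1 on it, against 46.6, 20.7 and 60.7 for the uninfested ones. Replicate 2 of each group lay nearest to the other group.

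Leaf markers were high in both groups. The 7 photosynthesis genes averaged 12.02, 11.34 and 11.74 on infested arrays and 11.91, 11.93 and 11.93 on uninfested arrays. The 8 seed storage genes averaged 5.45 to 5.56 in infested leaves and 5.57 to 5.76 in uninfested leaves, close to the lower end of the scale. The 15 root and nodule genes averaged 6.25 to 6.38 in infested leaves and 6.25 to 6.29 in uninfested leaves. All 8 phloem markers, sieve element occlusion genes, had differences below 0, of which limma called 0 (1 at an unadjusted p under 0.05), and their summed linear level ran from 462 to 529 in infested leaves and from 611 to 971 in uninfested leaves. With the RNA quality measure as a covariate 3 of the 8 phloem markers were lower, and the list median was -0.82, beside -0.45 without it. What part the phloem markers and the RNA quality measure have in the results below was not tested beyond that covariate. The phloem markers averaged 5.81, 6.01 and 5.97 on infested arrays and 6.40, 6.16 and 6.70 on uninfested arrays. As a list they are thus not shown to be above background in infested leaves, and their differences are not exact sizes. In a whole leaf, fewer cells of a type and less RNA per cell cannot be told apart.

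After 7 days, aphids changed 1067 of 37593 soybean probe sets at a Benjamini-Hochberg adjusted p of 0.05 in limma (2.84%, with 6603 at an unadjusted p under 0.05), of which 731 were higher (1.94%) and 336 lower (0.894%) in infested leaves. The rises were larger than the falls. The median rise was 1.39 log2 units and the median fall was -0.75. At least a 4-fold difference was found for 182 rises and 6 falls, and 18 rises and 0 falls reached 16-fold. The median level of the rises was 9.19 in infested leaves and 7.40 in uninfested leaves, while that of the falls was 8.09 in infested leaves and 8.91 in uninfested leaves. The 3 arrays of each group stood apart in 24.3% of all probe sets and in 1058 of the calls. Without 1 array the number called was 220 (infested replicate 1), 858 (infested replicate 2), 418 (infested replicate 3), 275 (uninfested replicate 1), 1252 (uninfested replicate 2) or 239 (uninfested replicate 3). The balance of rises and falls depended on scaling, with 2116 higher and 21 lower on unscaled values, where the median of all probe sets lay at 0.26, and 802 higher and 726 lower after median centring.

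Few of these probe sets can be named. An informative gene name was available for 1131 genes, of which 49 rose (4.33%) and 18 fell (1.59%) in at least 1 probe set, and 0 went both ways. Those 67 genes are taken by role below, each with the called probe set of largest difference. A further condition was that the 3 infested arrays all lay above or all below the 3 uninfested ones. That the groups do not overlap in the called genes below therefore adds no support. For 39 of them several probe sets were present, and in 28 of these only 1 was called. Without 1 array 18 (infested replicate 1), 45 (infested replicate 2), 28 (infested replicate 3), 22 (uninfested replicate 1), 58 (uninfested replicate 2) or 17 (uninfested replicate 3) of the 67 genes still passed. SCOF-1, BZIP71, SPK-4, SRC2, EXP2 and LHCP passed under all 16 alternatives. PM3, ACS1, BZIP68, SCAM-5, WRKY51 and B13-1-9 passed under the 15 they were tested in, since a filter at the median level left them out. Each gene counts once in the lists below, by its probe set with the highest mean, on which 36 of the 1131 genes rose (3.18%), 13 fell (1.15%) and the median was -0.03. By sign alone, 530 of the 1131 genes lay above 0 and 601 below. Of all 37593 probe sets 17193 lay above 0 and 20400 below. Several probe sets carry the maker's suffix for probes that match more than 1 transcript, so close relatives of these genes may add to their signal. Among those described they include PM3, BZIP71, SPK-4, BBI-1, PAL2.1, PIP2-4, NAC1, CAB3, SGlu2, HDL56, MYB52, G6PDH, VSPA and LOX1.4.

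**Figure D1:**
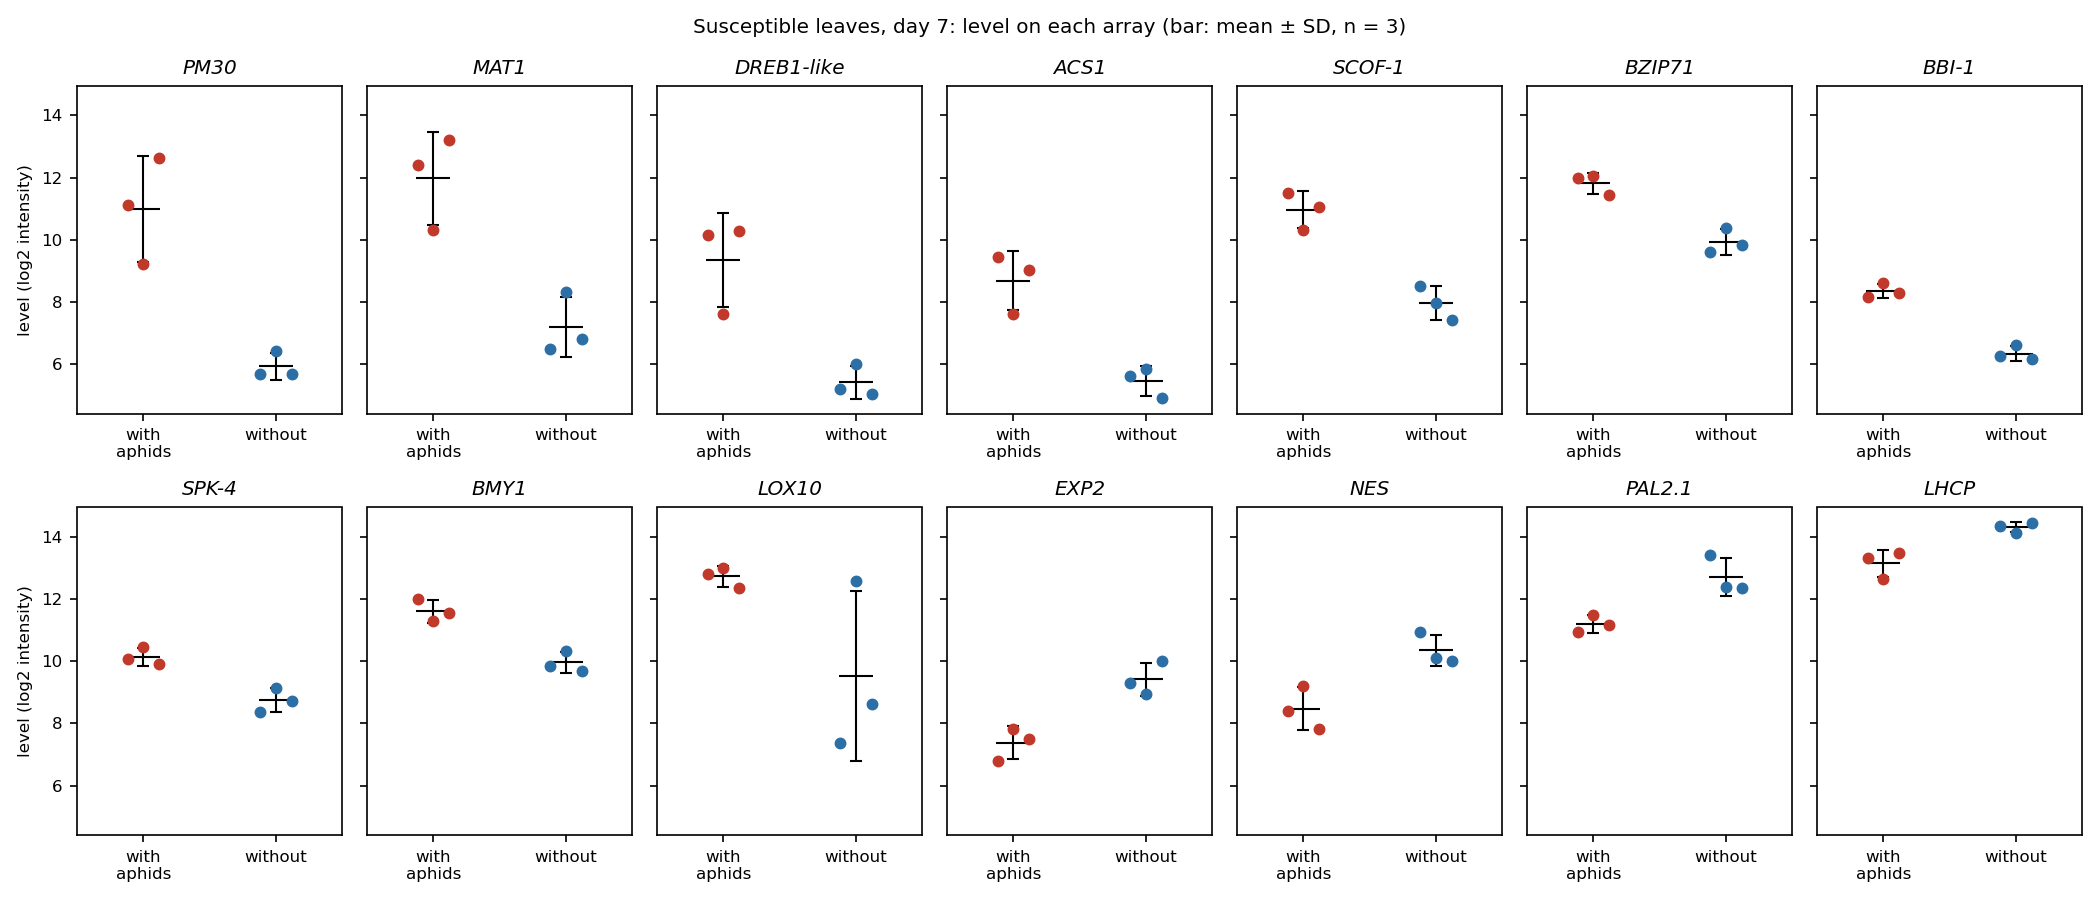
Log2 intensity (vertical axis) of 14 genes on each of the 3 infested (red) and 3 uninfested (blue) susceptible arrays of day 7; the bars are means ± SD. The groups separate for every gene shown except LOX10, since separation was a condition for naming the called ones. In LOX10 uninfested replicate 2 lies at 12.59 beside the infested arrays.

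Seed maturation genes included the largest rise of a named gene. These genes code for late embryogenesis abundant (LEA) proteins, dehydrins and related proteins that protect drying seeds, and vegetative tissue often makes them under water deficit. In a list of 30 such genes 7 rose and 0 fell (28 above 0; median 0.44). PM30 stood at 11.12, 9.22 and 12.64 in infested leaves and at 5.68, 6.42 and 5.67 in uninfested leaves, a difference of 5.07 ± 1.11 (SE, n = 3 arrays per group, adjusted p = 0.0175). The dehydrin gene MAT1 stood at 12.40, 10.32 and 13.21 in infested leaves, against 6.48, 8.31 and 6.79 in uninfested leaves (4.79 ± 1.16, adjusted p = 0.0297). In both genes infested replicate 2 was the lowest infested array and uninfested replicate 2 the highest uninfested one. The groups did not overlap, as the choice of called genes required.

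PM3 was more even, at 8.53, 8.13 and 9.55 with aphids and 5.87, 6.25 and 5.64 without (2.82 ± 0.46, adjusted p = 0.00277). PM35 reached 11.49, 10.32 and 11.46 in infested leaves, against 7.72, 8.20 and 7.40 in uninfested leaves. PM29, PM9 and MP2 rose by 1.98 ± 0.43, 1.92 ± 0.45 and 1.59 ± 0.35. Members that were near the 5th percentile in both groups, such as PM24 (5.37 infested, 5.36 uninfested) and PM25 (5.29 and 5.28), differed by 0.009 ± 0.135 and 0.006 ± 0.127. PM41 and PM16 had large values that missed the threshold (2.54 ± 0.94, adjusted p = 0.153, and 2.25 ± 0.74, adjusted p = 0.106). The mean level over the 30 genes was 7.62, 7.09 and 7.83 on infested arrays and 6.39, 6.49 and 6.36 on uninfested arrays. Of the 8 seed storage protein genes, for glycinins, conglycinins and P34, limma called 0 (2 at an unadjusted p under 0.05) and the median was -0.12. Leaving out infested replicate 1 or 3, or uninfested replicate 1 or 3, gave 1 call in the list of 30, while leaving out infested replicate 2 gave 8 and uninfested replicate 2 gave 7.

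Regulators of cold and drought responses were also higher. DREB factors bind the drought-responsive element of stress genes, and SCOF-1 is a zinc finger factor induced by cold. Of 8 genes in this list 5 rose and 0 fell, with a median of 1.27. SCOF-1 had levels of 11.51, 10.33 and 11.04 in infested leaves and 8.52, 7.98 and 7.41 in uninfested leaves (2.99 ± 0.45, adjusted p = 0.00158). The DREB1-like gene had 10.15, 7.60 and 10.27 with aphids, against 5.19, 6 and 5.03 without. DREB2A2 had 10.14, 8.96 and 10.39 in infested leaves and 8.5, 8.17 and 7.82 in uninfested leaves (1.67 ± 0.35, adjusted p = 0.0146). Every infested array lay above every uninfested one in these 3 genes, as the choice of called genes required. Infested replicate 2 was the lowest of the infested arrays each time. The DREB1-like gene differed by 3.93 ± 0.83 (adjusted p = 0.0146). DREB2 and DREB3 rose by 1.61 ± 0.33 and 0.79 ± 0.19, while the gene listed only as DREB stood at -0.17 ± 0.18 and did not pass. The count of 5 became 2 without infested replicate 1 or uninfested replicate 1, and 1 without infested replicate 3 or uninfested replicate 3. SRC2, a cold-regulated gene outside the list, had 10.80, 9.64 and 10.99 in infested leaves and 8.73, 8.70 and 8.5 in uninfested leaves (1.83 ± 0.33, adjusted p = 0.00535).

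Of 7 protein kinases of the SnRK2 and MAPK type 2 rose and 0 fell (median -0.01), and 1 rose with the 6 arrays alone or without infested replicate 1 or 2 or uninfested replicate 1 or 3. SnRK2-type kinases carry the abscisic acid and osmotic stress signal, and BZIP1, whose synonym is AREB1, belongs to the bZIP factors that bind the abscisic acid responsive element. SPK-4, such a kinase, was measured at 10.08, 10.47 and 9.90 in infested leaves and 8.37, 9.14 and 8.72 in uninfested leaves (1.41 ± 0.19, adjusted p = 0.000804). SPK-3 was measured at 10.16, 10.02 and 9.59 with aphids and 9.07, 9.46 and 8.98 without (0.75 ± 0.18, adjusted p = 0.0318). The groups did not overlap in either. SPK-1 and SPK-2, the other kinases of this type on the list, stood at -0.08 ± 0.29 and 0.05 ± 0.25, so the rise was called for 2 of the 4. No other gene of the abscisic acid list could be named on the array than BZIP1, which had 8.99, 9.28 and 8.67 in infested leaves and 7.91, 8.18 and 8.22 in uninfested leaves (0.88 ± 0.20, adjusted p = 0.0248), in 1 of its 2 probe sets. Its brightest probe set did not pass (0.68 ± 0.19, adjusted p = 0.0612).

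BZIP71 showed a 3.71-fold rise that stood in both of its probe sets, with 12, 12.04 and 11.43 in infested leaves against 9.59, 10.39 and 9.82 in uninfested leaves (1.89 ± 0.30, adjusted p = 0.00259). BZIP68 and BZIP77 rose by 1.45 ± 0.22 and 1.49 ± 0.39. The bZIP family as a whole was split, since 39 of 66 members lay above 0, the median was 0.05 and 1 rose by its brightest probe set (4 by any), against 9 on unscaled values and 6 with the covariate, which also gave 2 falls. In the NAC family of plant transcription factors 18 of 20 members lay above 0 with a median of 0.80, although 1 passed by its brightest probe set (3 by any probe set). That count was 8 on unscaled values, 7 with the RNA quality covariate and 4 with array weights, and it was 0 when any array other than infested replicate 2 was left out. The median was 0.525 without infested replicate 1. NAC1 had 8.25, 7.61 and 8.26 in infested leaves and 5.96, 5.79 and 5.84 in uninfested leaves (2.18 ± 0.58, adjusted p = 0.0465). NAC19 and GmNAC109 rose by 1.39 ± 0.23 and 1.02 ± 0.25. NAC26 and GmNAC019 were as far from 0 (2.02 ± 0.57 and 2.16 ± 0.63) and just missed the threshold, with adjusted p = 0.062 and 0.0668. WRKY factors, a family of defence regulators, had 0 of 53 genes called in limma by the brightest probe set (10 at an unadjusted p under 0.05) and a median of 0.13, or 0.005 after centring. On unscaled values 6 of them rose (median 0.37), with the RNA quality covariate 8 (median 0.25) and with array weights 2. By another probe set WRKY51 rose, at 7.50, 7.31 and 7.66 with aphids and 5.65, 6.52 and 5.62 without (1.56 ± 0.26, adjusted p = 0.00355, 2 of 4 probe sets), and WRKY22 rose by 0.82 ± 0.19 in 1 of 5. Of 72 MYB factors 1 rose, MYB52 by 0.63 ± 0.17, with a list median of -0.07 that lay at 0.14 on unscaled values.

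Among hormone genes, those of ethylene held members that passed. ACS1, for the enzyme that makes the ethylene precursor, had 9.43, 7.60 and 9.02 in infested leaves and 5.62, 5.83 and 4.92 in uninfested leaves (3.23 ± 0.46, adjusted p = 0.00111, 2 of 3 probe sets; its brightest probe set had 1.37 and an adjusted p of 0.0533). ERF6, an ethylene response factor, had 11.81, 9.79 and 11.75 with aphids against 8.80, 9.58 and 8.29 without (2.23 ± 0.51, adjusted p = 0.0216). The receptor genes EIN4 and ETR2 stood at -0.04 ± 0.12 and -0.19 ± 0.29. Of 12 genes in the ethylene list 2 rose by their brightest probe set, ERF6 and DREB2, and DREB2 is also in the cold and drought list. The median of the ethylene list was -0.03, and 0.38 on unscaled values. The number that rose in it was 3 without infested replicate 2, 1 without infested replicate 1 and 0 without infested replicate 3 or uninfested replicate 1 or 3, and it was 1 with the 6 arrays alone.

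In the jasmonate genes 1 uninfested array stood apart. Lipoxygenases open the route to jasmonate by oxidizing fatty acids, and limma called 0 of the 16 synthesis genes (7 at an unadjusted p under 0.05). Their median was 0.095, and -0.15 after centring. LOX10 had 12.82, 13.00 and 12.37 in infested leaves, against 7.36, 12.59 and 8.63 in uninfested leaves (3.20 ± 1.12, adjusted p = 0.13). LOX7 had 13.69, 13.96 and 13.57 with aphids and 10.63, 13.40 and 11.83 without (1.79 ± 0.56, adjusted p = 0.0914). The vegetative storage protein gene VSPA, a classic jasmonate-responsive gene of soybean leaves, had 13.39, 13.21 and 13.22 in infested leaves and 9.94, 13.71 and 12.46 in uninfested leaves. In all 3 genes uninfested replicate 2 sat with the infested arrays, at or near their level, while uninfested replicates 1 and 3 lay lower. The array was kept as labelled, and whether its plants differed in another way from those of the other uninfested arrays is not known from the labels. Without that array 3 of the 16 synthesis genes rose: LOX10 (4.74, adjusted p = 0.0165), LOX7 (2.51, adjusted p = 0.015) and LOX1.4 (2.09, adjusted p = 0.0223). The array was noticed by its levels of such genes, so these calls are no independent support. Leaving out any other array of the 6 gave 0 rises in this list. With all arrays kept, 3 of the 16 rose on unscaled values, 4 with the RNA quality covariate and 2 with array weights. VSPA had 2.07 without uninfested replicate 2 and still did not pass (adjusted p = 0.146). For the next steps AOS2, an allene oxide synthase, had 8.88, 8.77 and 8.32 in infested leaves and 10.23, 9.52 and 9.17 in uninfested leaves (-0.98 ± 0.40, adjusted p = 0.204). The allene oxide cyclases AOC3 and AOC6 stood at -1.05 ± 0.49 and -0.63 ± 0.34, and AOC2 and AOC4 at 0.64 ± 0.25 and 0.18 ± 0.50, none of which passed.

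Protease inhibitors can hamper digestion in insects. KTI-3, of the Kunitz type, had 11.24, 11.86 and 11.23 with aphids and 9.52, 11.66 and 9.06 without, where uninfested replicate 2 was again the high array, and did not pass (1.36 ± 0.54, adjusted p = 0.183). Other inhibitors did. BBI-1, a Bowman-Birk inhibitor of serine proteases, had 8.15, 8.60 and 8.29 in infested leaves and 6.25, 6.60 and 6.15 in uninfested leaves (2.02 ± 0.51, adjusted p = 0.0361). CYSTATIN, an inhibitor of cysteine proteases, had 11.94, 11.09 and 11.42 in infested leaves and 10.42, 10.75 and 10.36 in uninfested leaves (0.97 ± 0.24, adjusted p = 0.0318). In both genes every infested array lay above the uninfested ones. In the list of 12 inhibitors and cysteine proteases 2 rose and 0 fell (median 0.08, and -0.04 after centring). The number that rose was 4 without uninfested replicate 2, 1 without infested replicate 2 and 0 without infested replicate 1 or 3 or uninfested replicate 1 or 3.

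Among salicylate and pathogenesis-related genes no rise was called. Of 13 measured, limma called 0 rises and 1 fall (3 at an unadjusted p under 0.05; median 0.05). A rise of 1 gene was called on unscaled values, with the covariate, with array weights and with the 6 arrays alone. The fall was not called on unscaled values, with the 6 arrays alone or when any array other than uninfested replicate 2 was left out. PR1-1 had 5.55, 5.57 and 5.90 with aphids and 5.23, 5.55 and 5.69 without (0.19 ± 0.16). PAD4, a lipase-like regulator of basal immunity, had 9.45, 8.82 and 8.04 in infested leaves against 7.95, 9.08 and 7.48 in uninfested leaves (0.60 ± 0.39, adjusted p = 0.451), so its groups overlapped. NDR1b came nearest to passing (0.76 ± 0.23, adjusted p = 0.0797). SGlu2, a glucanase gene, was the member that fell, at 7.59, 6.85 and 7.30 in infested leaves and 9.02, 7.82 and 9.84 in uninfested leaves (-1.65 ± 0.44, adjusted p = 0.0461). RAR1-1, a cofactor of disease resistance proteins, fell by 0.37 ± 0.09, the smallest called difference among the 67 genes, and its sign turned on unscaled values (0.065). HS1pro1, a homologue of a nematode resistance gene of beet, went up in both of its probe sets, at 10.61, 9.33 and 9.94 with aphids and 8.58, 7.95 and 7.87 without (1.83 ± 0.41, adjusted p = 0.0196).

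In a list of 10 genes for protein folding in the endoplasmic reticulum and NRP cell death, 1 rose by its brightest probe set and 2 by any. By the brightest probe set 0 rose with the 6 arrays alone or without infested replicate 1 or 3 or uninfested replicate 1 or 3. NRP-B and NRP-A, asparagine-rich proteins that take part in cell death under endoplasmic reticulum and osmotic stress, rose by 1.64 ± 0.41 and 1.45 ± 0.39. NRP-B stood at 11.55, 10.55 and 10.79 in infested leaves and at 9.27, 10.11 and 8.58 in uninfested leaves. The other 8 members of that list, folding genes of the endoplasmic reticulum, lay between -0.37 and 0.19, and limma called 0 of them. BMY1, a beta-amylase that breaks down starch, rose 3.13-fold in 3 of 3 probe sets, with 12.01, 11.28 and 11.55 in infested leaves and 9.86, 10.34 and 9.70 in uninfested leaves (1.65 ± 0.31, adjusted p = 0.00784). PEPC4 and PEPC7, for the carbon-fixing enzyme phosphoenolpyruvate carboxylase, rose by 1.51 ± 0.33 and 0.70 ± 0.18 in 1 of 2 and 1 of 4 probe sets.

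Aldehyde dehydrogenases clear reactive aldehydes and make osmolytes such as betaines. ALDH10A2 had 10.95, 11.45 and 10.55 with aphids and 9.25, 10.08 and 9.25 without (1.46 ± 0.32, adjusted p = 0.0167), and ALDH3H1 rose by 1.25 ± 0.23. ALDH2C8 went the other way, at 8.02, 8.04 and 7.92 in infested leaves and 8.77, 8.64 and 8.46 in uninfested leaves (-0.63 ± 0.17, adjusted p = 0.0488). Its fall passed in only 3 of 16 alternatives, beside 12 of 16 for ALDH10A2 and 14 of 15 for ALDH3H1. Of the 19 genes in that list 2 rose and 1 fell (median 0.22). The calmodulin gene SCAM-5, a calcium sensor, was among the tightest of all, with 6.62, 6.21 and 6.44 in infested leaves and 5.23, 5.22 and 5.25 in uninfested leaves (1.19 ± 0.15, adjusted p = 0.00053), although its uninfested level lay below the 5th percentile. BAG6A, a co-chaperone, rose by 1.11 ± 0.19. Glutathione transferases, which conjugate toxic compounds, gave both directions: GSTU47 and GSTU1 rose by 2.03 ± 0.54 and 1.00 ± 0.25, and GSTU51 fell, at 9.21, 9.28 and 9.13 with aphids and 10.06, 9.82 and 9.94 without (-0.74 ± 0.17, adjusted p = 0.0237). In the list of 56 redox and detoxification genes 1 rose and 1 fell by the brightest probe set (median -0.01). By any probe set 2 of the 56 rose and 1 fell, beside 49 and 18 of all 1131 named genes.

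Growth and wall genes held the largest called fall of a named gene. EXP2, an expansin that loosens the cell wall, fell 4.12-fold in 3 of 3 probe sets, with 6.80, 7.83 and 7.51 in infested leaves and 9.31, 8.96 and 9.997 in uninfested leaves (-2.04 ± 0.35, adjusted p = 0.0043). ADF1, which cuts and turns over actin filaments, had 8.18, 8.07 and 7.92 with aphids and 8.95, 8.94 and 8.92 without (-0.87 ± 0.18, adjusted p = 0.0123). The spread within each group was small beside that gap. The GASA genes, for small gibberellin-regulated peptides, ran in both directions. GASA24 rose, at 11.41, 11.15 and 11.22 in infested leaves and 9.88, 10.21 and 9.27 in uninfested leaves (1.47 ± 0.30, adjusted p = 0.0119), whereas GASA9 had 9.62, 8.45 and 8.16 in infested leaves against 11, 11.15 and 11.59 in uninfested leaves and missed the threshold (-2.51 ± 0.70, adjusted p = 0.0572). In the list of 26 wall and growth genes 1 rose and 1 fell, and the median was -0.23. The member furthest below 0 was SBPRP, a proline-rich cell wall protein, at -3.36 ± 1.16, which did not pass (adjusted p = 0.127). HDL56, a homeodomain leucine zipper factor, and COL10, a CONSTANS-like factor of the light and clock pathways, fell by 0.94 ± 0.22 and 0.94 ± 0.21.

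Phenylpropanoid genes all had differences below 0. Phenylalanine ammonia-lyase takes phenylalanine into lignin, flavonoids and phenolic defences, and PAL2.1 had 10.94, 11.50 and 11.18 in infested leaves, against 13.42, 12.39 and 12.35 in uninfested leaves (-1.51 ± 0.40, adjusted p = 0.0472). All 9 entry and lignin genes were below 0, with a median of -0.75, where the median over all probe sets was -0.03; 1 of the 9 passed in 1 of its 3 probe sets. The mean over the list was 9.60, 9.73 and 9.25 on infested arrays and 10.87, 10.24 and 9.81 on uninfested arrays. Downstream, 27 of 34 flavonoid and isoflavonoid genes were below 0 and limma called 0 (5 at an unadjusted p under 0.05), with a median of -0.34 that was -0.02 on unscaled values. With the RNA quality covariate that median was -0.105, 21 lay below 0 and 2 fell. CHS1, a chalcone synthase, had 8.43, 8.48 and 7.19 with aphids and 11.25, 10.13 and 9.29 without, a wide spread within each group (-2.19 ± 0.91, adjusted p = 0.209). The call for PAL2.1 was lost when any array other than uninfested replicate 2 was left out, and also on unscaled values, with the replicate block, with trended and robust variance and with the RNA quality covariate. With array weights or with the 6 arrays alone 3 of the 9 genes fell. The median of the 9 genes was -0.35 on unscaled values, where 1 of the 9 lay above 0, -0.45 with the covariate, -0.39 without uninfested replicate 1 and -1.03 without uninfested replicate 3.

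NES, a terpene synthase of the nerolidol type, stood at 8.41, 9.19 and 7.82 in infested leaves and at 10.94, 10.09 and 10.02 in uninfested leaves (-1.88 ± 0.49, adjusted p = 0.0431). SSH2, a Sec14-like lipid transfer protein, stood at 6.49, 7.00 and 7.27 with aphids and 8.72, 7.86 and 8.57 without (-1.46 ± 0.37, adjusted p = 0.0364). Both fell in their single probe set with no overlap. Among 10 fatty acid desaturase genes, which set membrane lipids and feed the jasmonate route, limma called 0 (4 at an unadjusted p under 0.05) and 8 lay below 0, with a median of -0.39 and, on unscaled values, -0.03. With the covariate 2 of them fell, and with array weights 3. FAD8.2 had 8.54, 8.34 and 7.74 in infested leaves and 9.72, 9.45 and 9.71 in uninfested leaves, with adjusted p = 0.0652.

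Of the genes for light capture and water channels, a few fell. LHCP, a chlorophyll-binding protein of the antenna, had 13.31, 12.65 and 13.50 with aphids and 14.35, 14.14 and 14.45 without (-1.16 ± 0.22, adjusted p = 0.00706, 2 of 2 probe sets). CAB3, of the same protein class, had 14.04, 13.75 and 13.87 in infested leaves and 14.50, 14.34 and 14.42 in uninfested leaves (-0.53 ± 0.12, adjusted p = 0.0243) in 1 of 5 probe sets. Both genes were far brighter than most probe sets, and no infested array reached an uninfested one. None of the other members of the list passed: PSAD of photosystem I stood at -0.15 ± 0.09, and 4 genes for Rubisco activase lay between -0.18 and 0.15. PIP2-4, an aquaporin of the plasma membrane, had 10.08, 10.03 and 10.43 in infested leaves against 11.78, 10.74 and 11.82 in uninfested leaves (-1.27 ± 0.34, adjusted p = 0.0482). It was 1 of 23 aquaporins to pass, and 17 of them lay below 0, with a median of -0.31 that turned to 0.03 on unscaled values. The covariate gave 4 calls in that list, and the replicate block, the 6 arrays alone and unscaled values gave 0, as did leaving out any array other than uninfested replicate 2, which gave 2.

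The remaining called genes with a name are given by their labels. B13-1-9 had 11, 9.18 and 10.65 in infested leaves and 5.28, 5.60 and 5.49 in uninfested leaves (4.82 ± 0.61, adjusted p = 0.00053), the second largest rise of the 67. SRC1, COR2, 1-3-1B, COR1 and DR1 rose by 1.56 ± 0.31, 1.45 ± 0.26, 1.03 ± 0.26, 0.83 ± 0.18 and 0.72 ± 0.16. AG1 had 6.43, 6.29 and 6.99 with aphids and 8.25, 7.82 and 9.24 without (-1.87 ± 0.36, adjusted p = 0.00784), with no overlap between the groups. PK, DD2/63 and G6PDH, the last for glucose-6-phosphate dehydrogenase of the pentose phosphate pathway, fell by 1.00 ± 0.26, 0.76 ± 0.15 and 0.49 ± 0.13.

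**Figure D2:**
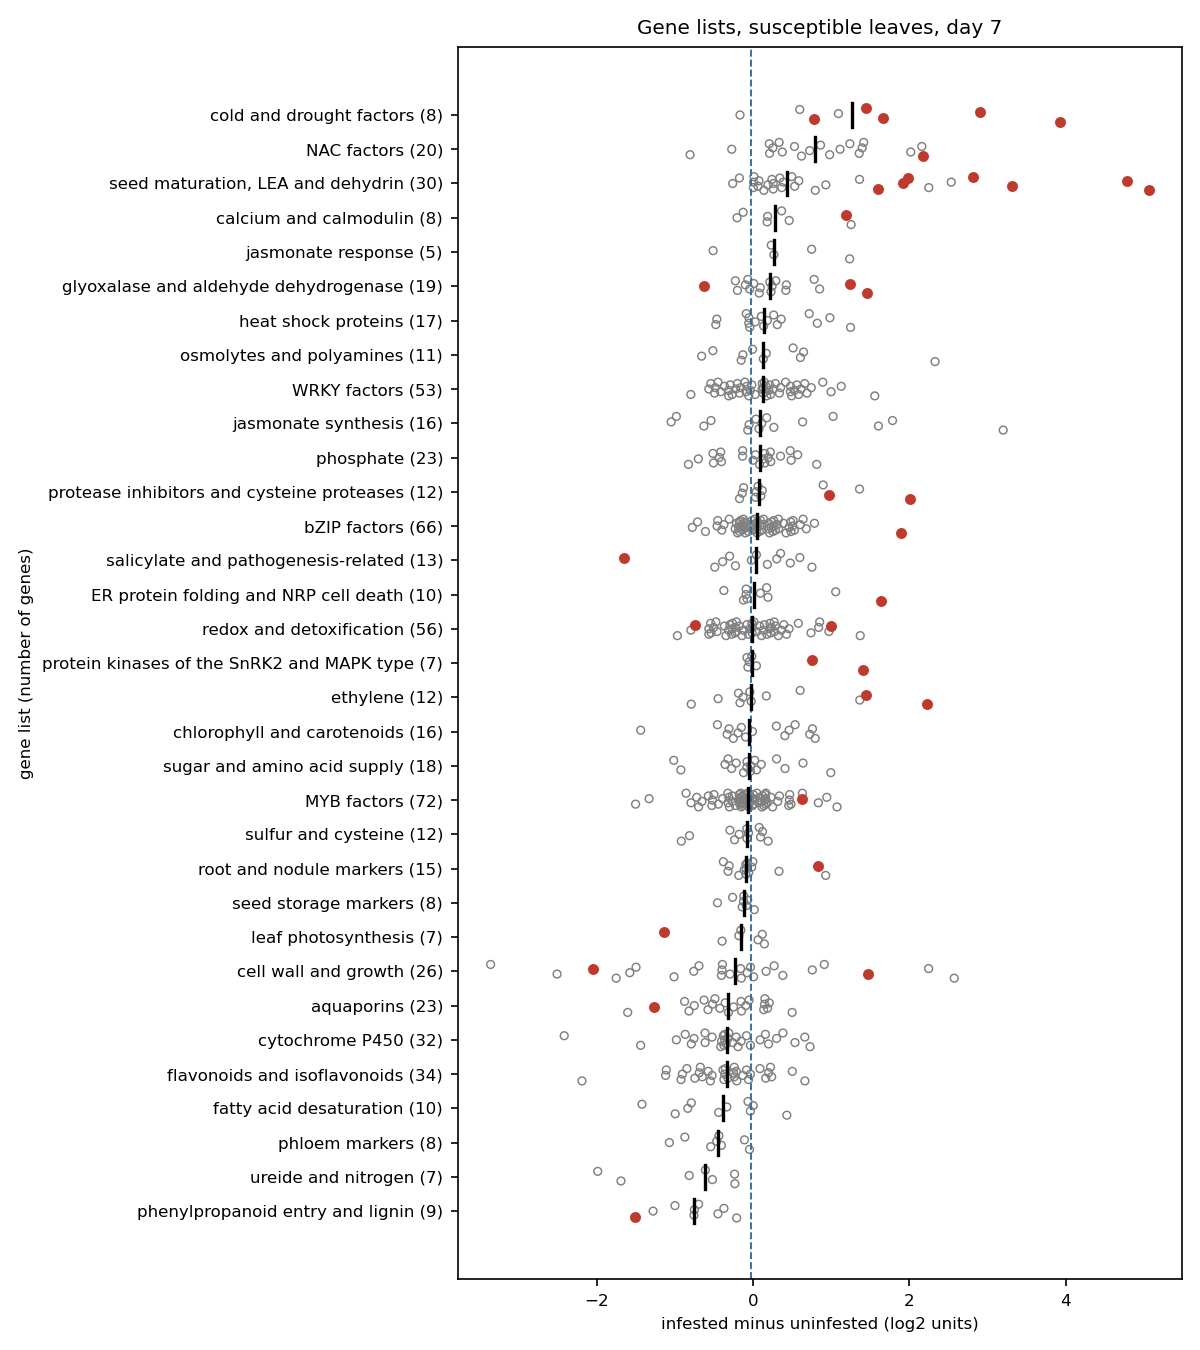
Log2 difference, infested minus uninfested (horizontal axis), of each gene in the lists with at least 5 genes; red points passed an adjusted p of 0.05 in limma, open points did not, black bars are list medians and the dashed line is the median of all probe sets. Medians run from -0.75 for phenylpropanoid genes to 1.27 for cold and drought factors.

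The same contrast was made in the resistant cultivar, with which it shares no array. In resistant leaves 1 probe set was called after 7 days (0.00266%). Probe sets that rose in susceptible leaves had a median resistant difference of -0.10, and 40.5% of them lay above 0, where 45.4% of all probe sets did. Of those that fell, 11% were below 0 in resistant leaves. The difference between the cultivars, tested as susceptible minus resistant effect, was called for 254 probe sets (0.676%), 149 of them above 0 (0.396%) and 105 below (0.279%). The susceptible effect is 1 term of that difference, and 229 of the 254 (90.2%) were also calls of the susceptible effect. The number called for the difference was 0 when only the 12 arrays of both contrasts were fitted (6097 at an unadjusted p under 0.05, lowest adjusted p = 0.0615), an alternative chosen after seeing the data. Single arrays moved it too. Without 1 susceptible array it was 14 (infested replicate 1), 355 (infested replicate 2), 121 (infested replicate 3), 21 (uninfested replicate 1), 400 (uninfested replicate 2) or 14 (uninfested replicate 3). Without 1 resistant array it was 12 (infested replicate 1), 618 (infested replicate 2), 101 (infested replicate 3), 12 (uninfested replicate 1), 246 (uninfested replicate 2) or 642 (uninfested replicate 3).

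SPK-4 was among the named genes with the lowest adjusted p for the difference between cultivars, 2.16 ± 0.27 (adjusted p = 0.00331). Its levels were 9.38, 9.35 and 9.59 in infested resistant leaves and 9.89, 10.20 and 10.47 in uninfested resistant leaves. PM3 had 6.20, 7.79 and 7.95 in infested resistant leaves and 9.04, 7.06 and 7.35 in uninfested resistant leaves, and its effects differed by 3.32 ± 0.65 (adjusted p = 0.0263). PAL2.1 had 12.83, 12.08 and 12.03 in infested resistant leaves against 9.70, 11.85 and 11.64 in uninfested resistant leaves (difference between cultivars -2.76 ± 0.57, adjusted p = 0.0351), and uninfested replicate 1 was the low array. ACS1 lay at 6.22, 6.13 and 6.30 in infested resistant leaves and 7.34, 5.61 and 5.60 in uninfested resistant leaves (3.20 ± 0.65, adjusted p = 0.0339).

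Other genes with large rises had differences between cultivars that did not pass. PM30 averaged 9.68 ± 2.59 (SD, n = 3) in infested and 9.69 ± 2.79 in uninfested resistant leaves, and its difference of 5.08 ± 1.57 did not pass (adjusted p = 0.122). SCOF-1 had 9.87, 9.08 and 9.41 in infested resistant leaves and 7.54, 8.29 and 7.50 in uninfested resistant leaves, an effect of 1.68 ± 0.45 that did not pass (adjusted p = 1). The difference for SCOF-1 was 1.32 ± 0.64 (adjusted p = 0.325). SRC2 and HS1pro1 had resistant effects of 0.99 ± 0.33 and 1.05 ± 0.41, neither of which passed.

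**Figure D3:**
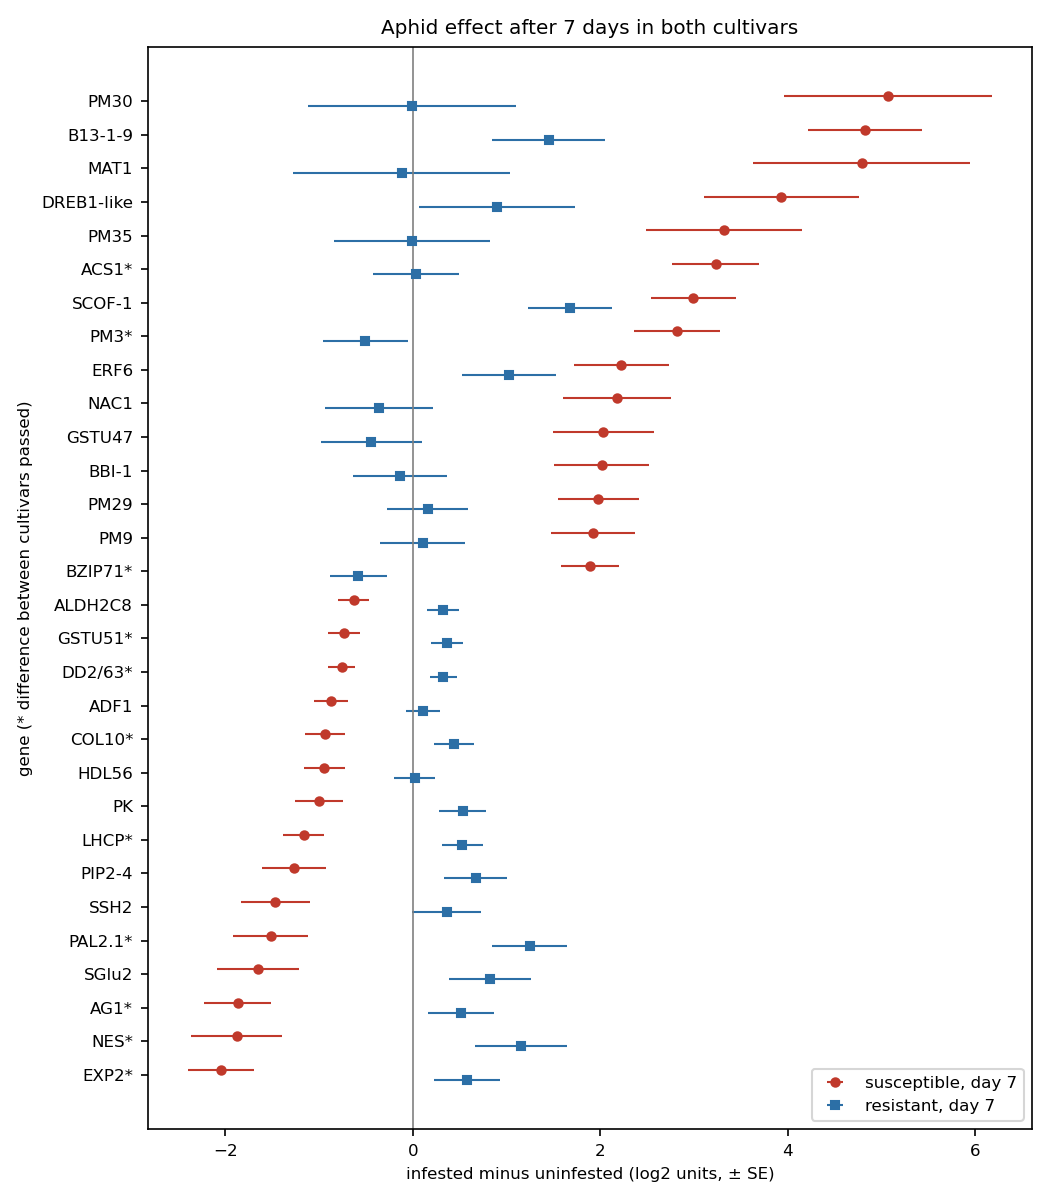
Aphid effect after 7 days (infested minus uninfested, log2 units ± SE, horizontal axis) for the 15 largest rises and 15 largest falls among named genes, in susceptible (red circles) and resistant leaves (blue squares); a star marks genes whose effect differed between cultivars at an adjusted p of 0.05. The blue squares run from -0.58 to 1.68, and the highest, SCOF-1, has the same sign as in susceptible leaves.

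The day 7 effect was also set against the day 1 effect in the same cultivar, again with no shared array. On day 1, 1883 probe sets were called (5.01%), 648 of them higher (1.72%) and 1235 lower (3.29%). Both days called 113 probe sets, which is 10.6% of the day 7 calls and 6% of the day 1 calls: 83 were higher on both days, 27 were lower on both days and 3 were opposite. By sign alone, 84.1% of the day 7 rises were above 0 on day 1, where 50.6% of all probe sets were, and 72.6% of the day 7 falls were below 0. The day 1 median was 0.37 for the rises and -0.17 for the falls. For the difference between the days limma called 0 probe sets (0%, with 5928 at an unadjusted p under 0.05 and a lowest adjusted p of 0.0806). It called 89 when only the 12 arrays of both contrasts were fitted, an alternative chosen after seeing the data, 117 without infested replicate 2 of day 7, 2 without uninfested replicate 2 of day 7 and 21 without uninfested replicate 2 of day 1.

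SCOF-1 was high with aphids on both days: 11.51, 10.33 and 11.04 on day 7 and 10.34, 9.92 and 9.76 on day 1, against 8.52, 7.98 and 7.41 in uninfested leaves on day 7 and 7.01, 7.65 and 7.75 in those of day 1. Its day 1 effect was 2.54 ± 0.45 (adjusted p = 0.0136). PM3 had a day 1 effect of -0.17 ± 0.46 and levels of 6.31, 5.90 and 5.54 in infested and 6.06, 6.02 and 6.19 in uninfested leaves on that day. The difference between its day 7 and day 1 effects was 2.99 ± 0.65 (adjusted p = 0.119). EXP2 on day 1 had 9.23, 9.83 and 9.43 with aphids and 9.83, 9.70 and 9.34 without, and its difference between the days was -1.92 ± 0.50 (adjusted p = 0.151). SGlu2 was lower on both days, with a day 1 effect of -2.09 ± 0.44 (adjusted p = 0.0203), and WRKY22 was higher on both, with 0.67 ± 0.19 on day 1 (adjusted p = 0.0474).

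**Figure D4:**
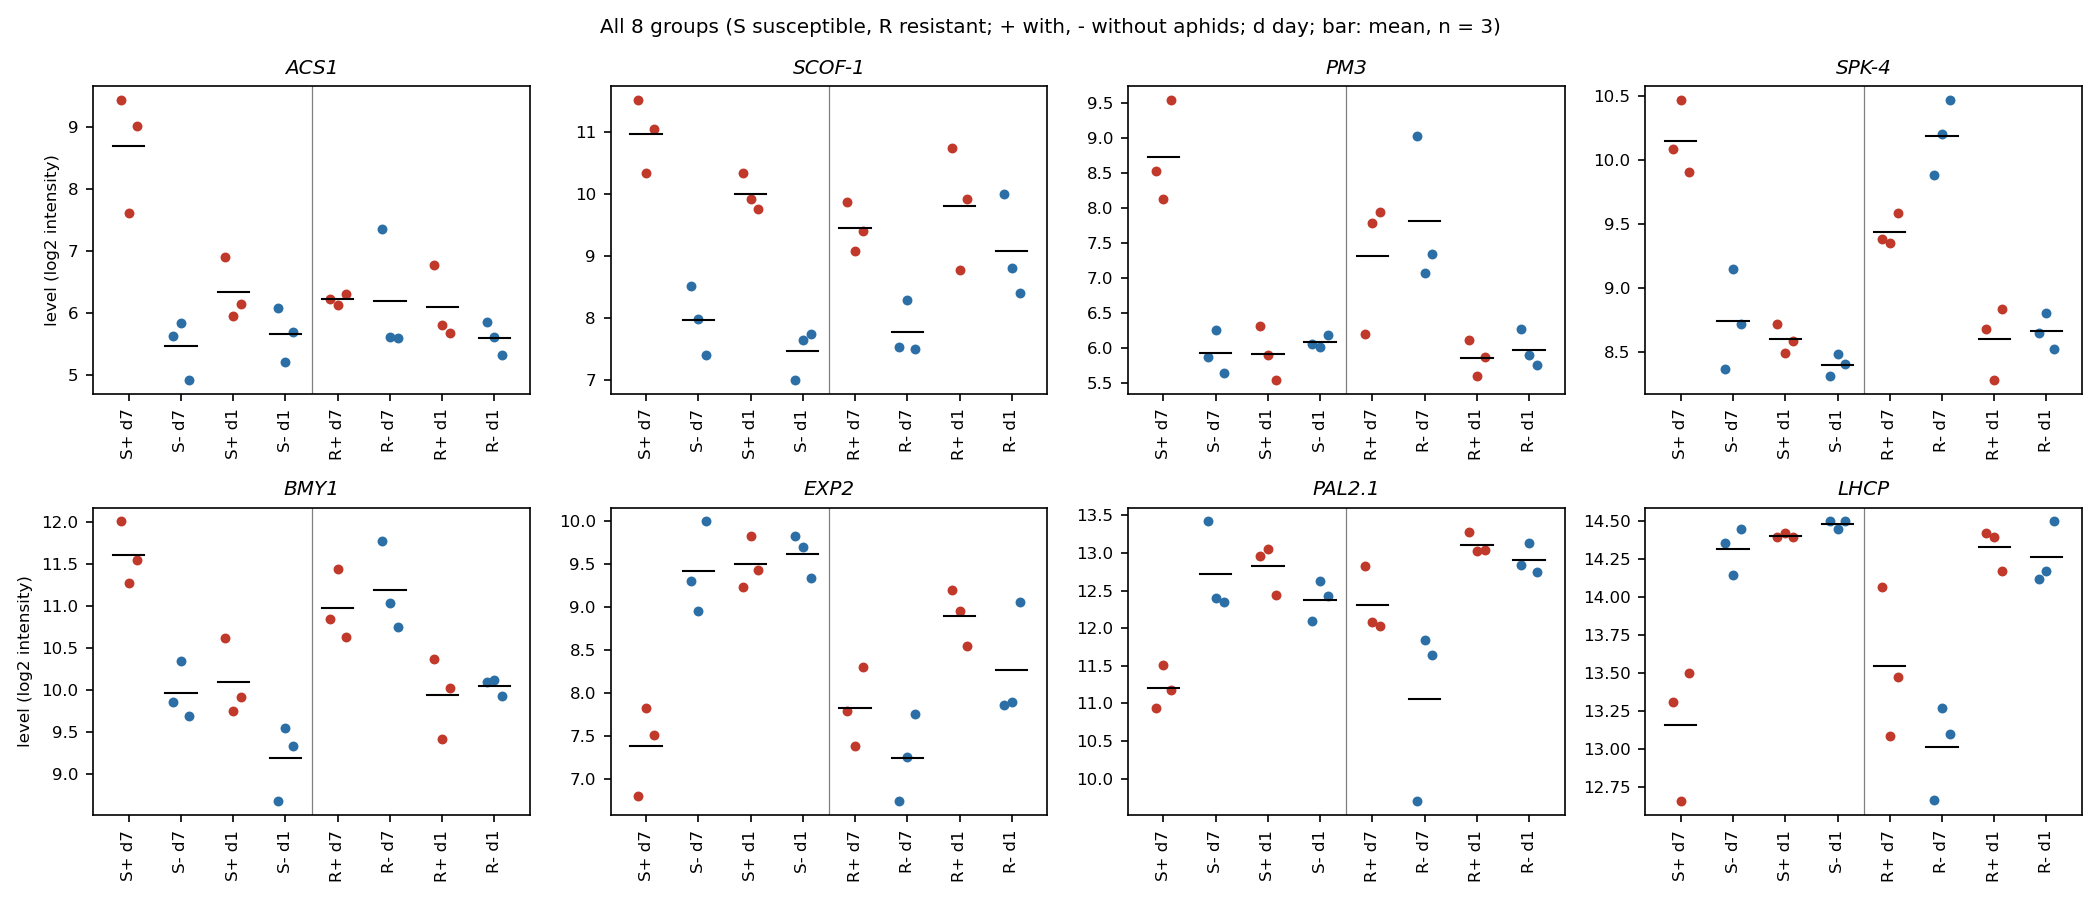
Log2 intensity (vertical axis, scaled per gene) of 8 genes in all 8 groups of 3 arrays, with infested samples in red and uninfested in blue; S and R are the susceptible and resistant cultivars, + and - mark aphids, d7 and d1 are the days, and bars are means. Infested susceptible leaves of day 7 hold the highest means of ACS1, SCOF-1 and PM3 among the groups, while SPK-4 is as high in uninfested resistant leaves of day 7.

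The largest called rise and the largest called fall had no gene name in the tables used here. Gma.2044.1.S1_at had 13.80, 12.35 and 14.16 in infested leaves and 5.92, 8.93 and 6.07 in uninfested leaves (6.46 ± 1.04, adjusted p = 0.00256). The fall, Gma.731.1.S1_at, had 6.22, 6.46 and 7.23 with aphids and 9.70, 8.97 and 10.08 without (-2.95 ± 0.78, adjusted p = 0.0456). Both were named here after their values were seen.

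**Figure D5:**
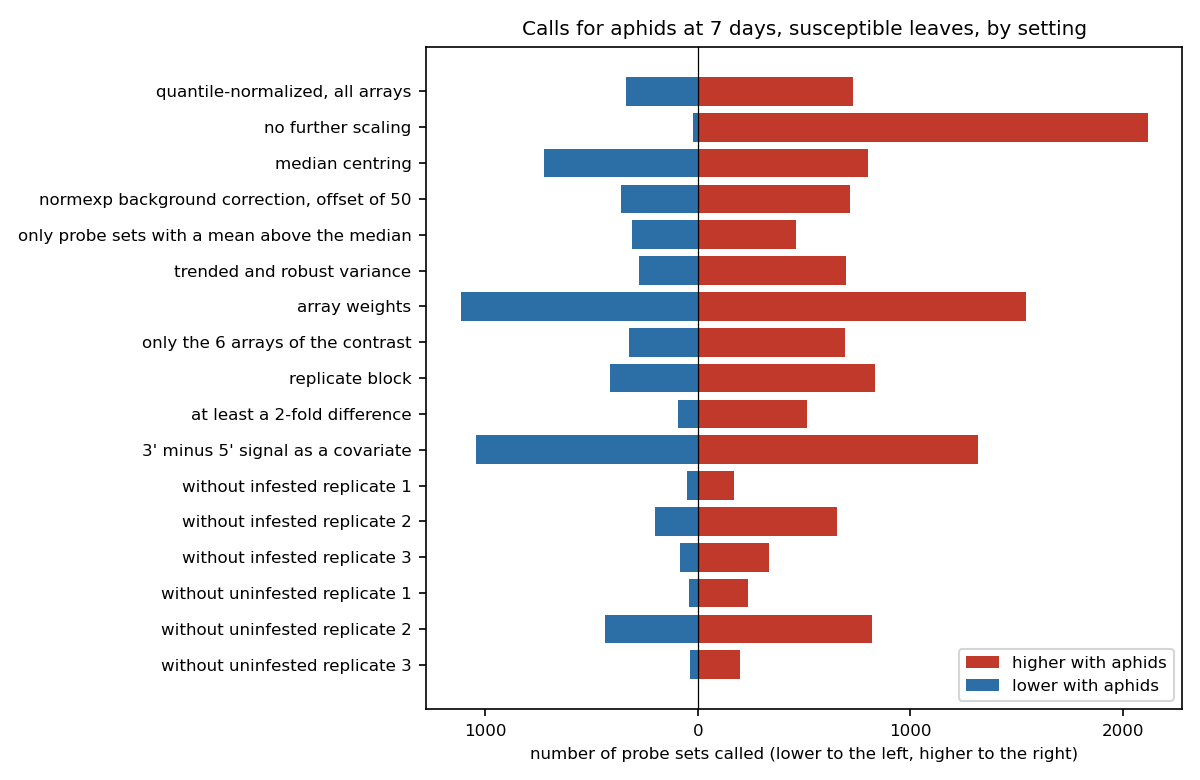
Number of probe sets called for the aphid effect in susceptible leaves on day 7 (horizontal axis; higher to the right in red, lower to the left in blue) under the setting used in the text and each alternative (vertical axis). The number called runs from 220 without infested replicate 1 to 2660 with array weights.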

How the data were processed

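The series matrix held the authors' deposited log2 values of 24 1-colour Affymetrix arrays. The submitters' processing notes name RMA, GCRMA and limma without roles or versions, and the array medians differed from 7.00 to 8.04, so the values were quantile-normalized here over all arrays. Depth does not apply to arrays; their number limits precision. Control probe sets were left out, and 37593 soybean probe sets remained. Of these, 8677 carried 1 gene in the platform annotation, 370 several and 28546 none. The single genes were looked up in RefSeq for synonyms (8652 probe sets found), and 0 symbols changed. limma 3.58.1 in R 4.3.3 fitted the 8 group means with eBayes and Benjamini-Hochberg adjustment within a contrast, and adjusted p-values under 0.05 were calls. Scripts were tested on simulated data. Same-numbered samples of both groups had deviation correlations of 0.071, 0.237 and 0.386, and different-numbered ones ran from -0.401 to 0.116. On the second principal component (19.4% of the variance) infested replicates 1 to 3 scored 9.7, -36.2 and 33.7. Uninfested replicates 1 to 3 scored -8, -29.6 and 30.3 on it. Whether the numbers mark a batch was not tested. The fit used in the text left the samples unpaired, and the replicate block was an alternative. Named genes are the 15 largest rises and falls, up to 3 genes per direction in each list and 5 per difference of effects. Genes named as called also had to have the 3 infested arrays all above or all below the 3 uninfested ones. The other called genes with an informative name, and some uncalled list members, were added after their values were seen. The members and lists were chosen with earlier results of these data known, and 3 lists quoted (endoplasmic reticulum and cell death, glyoxalase and aldehyde dehydrogenase, osmolytes) after the files were read. Product names and promoter sequences were not used here. Alternatives covered scaling, background correction, filters, variance model, array weights, the samples fitted, the replicate block, RNA quality and leaving out each array.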

Additional observations from a re-analysis of the deposited data

Results flagged for a closer look

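The aphid effect on day 7 differed between the cultivars, by a test of that difference (susceptible minus resistant effect), in 254 probe sets. By the probe set described 20 of the named genes were among them, and BMY1 by another of its probe sets (1.76, adjusted p = 0.0448). The named genes had been chosen for a called susceptible effect, which is 1 term of this difference, so their passing adds no independent support. Of all probe sets called for the susceptible effect, 21.5% were also called in the difference. In the direction of a higher effect in susceptible leaves were the kinases SPK-4 (2.16) and SPK-3 (1.24), the bZIP factors BZIP71 (2.47), BZIP1 (1.40) and BZIP68 (1.35), and the WRKY factors WRKY51 (2.02) and WRKY22 (1.21). The seed maturation gene PM3 (3.32), the ethylene synthesis gene ACS1 (3.20), the aldehyde dehydrogenases ALDH10A2 (2) and ALDH3H1 (1.75) and the calmodulin SCAM-5 (1.59) lay the same way. A lower effect in susceptible leaves was found for NES (-3.03), PAL2.1 (-2.76), EXP2 (-2.62), AG1 (-2.38), LHCP (-1.69), COL10 (-1.38), GSTU51 (-1.10) and DD2/63 (-1.08). In uninfested resistant leaves of day 7 EXP2 had 6.74, 7.25 and 7.75, LHCP had 12.66, 13.27 and 13.10, and PAL2.1 had 9.70, 11.85 and 11.64. In the same leaves SPK-4 had 9.89, 10.20 and 10.47, and BMY1 had 11.78, 11.03 and 10.75 by the probe set described. Those levels are near the ones of infested susceptible leaves. Low levels of EXP2, LHCP and PAL2.1 and high levels of SPK-4 and BMY1 are therefore not particular to the latter. The adjusted p-values of the 20 in limma ran from 0.00331 to 0.0477, and no probe set passed when only the 12 arrays of both contrasts were fitted.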

How the results depend on the processing

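For the aphid effect in susceptible leaves on day 7 the number called, 1067 (731 higher, 336 lower), became 2137 (2116 and 21) without further scaling, 2660 (1543 and 1117) with array weights, 2362 (1317 and 1045) with the 3' minus 5' signal as a covariate and 603 (92 lower) at a 2-fold minimum. Median centring gave 726 lower, and a filter at the median level 463 higher. Leaving out 1 array gave 220 to 1252 called, 171 to 817 higher and 39 to 435 lower. The replicate block gave 1247; infested replicate 1 correlated best with uninfested replicate 2, the others with their own number. For the difference between cultivars the 254 calls became 497 without further scaling, 441 with centring, 384 with the replicate block, 880 with the covariate and 0 with only its 12 arrays (the last 2 chosen after seeing the data), and 12 to 642 without 1 array. For the difference between days the 0 calls became 7 without further scaling and 89 with only its 12 arrays (chosen after seeing the data), and 0 to 117 without 1 array. RAR1-1 was the single named gene to change sign, to 0.065 without further scaling. Of the 67 named genes 52 still passed without further scaling, 63 with centring, 62 with the replicate block and 41 with only the 6 arrays. With 1 array left out its group kept 2 arrays. The causes were not tested. Levels near the 5th percentile limit the sizes of the largest rises.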

Other observations

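Nitrogen genes lay below 0 without passing. The nitrate reductase gene INR2, for the first step of nitrate assimilation, had 6.89, 5.55 and 5.78 in infested leaves and 9.35, 7.54 and 7.28 in uninfested leaves (-1.99 ± 0.76, adjusted p = 0.168), and INR1 had 7.31, 6.43 and 6.21 with aphids against 9.28, 7.94 and 7.80 without (-1.69 ± 0.69, adjusted p = 0.201). Replicate 1 was the highest array within each group. No infested array reached the uninfested ones in either gene, as was the case for 13% of all probe sets. All 7 genes of the nitrogen list were below 0 with a median of -0.61, and limma called 0 of them (4 at an unadjusted p under 0.05). On unscaled values 2 of the 7 lay above 0 and the median was -0.35, without uninfested replicate 1 it was -0.33, and the replicate block called 2 lower. Of 32 cytochrome P450 genes 24 were below 0 and limma called 0 (7 at an unadjusted p under 0.05), with a median of -0.33 that was -0.009 on unscaled values and -0.099 with the RNA quality covariate, which called 1 higher and 3 lower.

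Heat shock genes and osmolyte genes held large values that did not pass: limma called 0 of 17 and 0 of 11 (4 and 6 at an unadjusted p under 0.05). Of the heat shock genes 4 rose on unscaled values, 3 with array weights, 2 with the covariate and 2 without uninfested replicate 2. HSP22.3, a small heat shock protein, had 9.02, 8.86 and 8.78 in infested leaves and 7.09, 8.59 and 7.24 in uninfested leaves (1.25 ± 0.35, adjusted p = 0.0597). GOLS, a galactinol synthase that starts the raffinose sugars, had 11.62, 9.19 and 9.44 with aphids and 7.28, 8.84 and 7.15 without (2.33 ± 0.77, adjusted p = 0.107). Uninfested replicate 2 was the highest uninfested array in both genes. The same array stood high for GASA22, at 12.78, 12.80 and 12.11 in infested leaves and 7.79, 11.84 and 10.35 in uninfested leaves (2.58 ± 0.81, adjusted p = 0.0921). The early nodulin gene ENOD40B rose by 0.83 ± 0.22 (adjusted p = 0.0432), the 1 call among 15 root and nodule genes, whose median was -0.09.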
